A study of Mus musculus with 4 samples.

Results

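The genes described here are the nuclear-encoded genes of the mitochondrial respiratory chain and ATP synthase in mouse embryonic fibroblasts (MEFs) treated with pigment epithelium-derived factor (PEDF). They are the protein-coding genes whose symbol begins with Nduf, Uqcr, Cox4 to Cox8 or Atp5, or is Sdha, Sdhb, Sdhc or Sdhd. This rule used names only, and it took 96 of the 55487 genes in the count table. Of these, 45 belong to complex I, 4 to complex II, 8 to complex III, 21 to complex IV and 18 to complex V. Ndufa4 and its paralog Ndufa4l2 were placed with complex IV, where the Ndufa4 protein is found, in spite of their names.

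Wild-type MEFs, which are primary cells with a limited life in culture and which the study prepared from C57BL/6J embryos, were grown for 24 h with recombinant PEDF, which the labels describe as purified from mammalian cells, at 100 ng/mL or without it. Polyadenylated RNA was sequenced in 2 independent experiments, each with its own embryos and with 1 control and 1 PEDF library. The sample labels give passage 2 for all MEFs, and the number of embryos pooled in a preparation is not given in the sources used here. The study asked how PEDF, a protein secreted by myoblasts, lowers cellular senescence and reactive oxygen species, and the respiratory chain is one cellular source of such species.

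Complex I (NADH dehydrogenase) and complex II (succinate dehydrogenase) pass electrons to ubiquinone. Complex III passes them on to cytochrome c, and complex IV (cytochrome c oxidase) passes them to oxygen. The proton gradient built by complexes I, III and IV drives complex V, the ATP synthase. Most subunits are encoded in the nucleus and imported, whereas a small core is encoded by mitochondrial DNA. Many subunits are short proteins with short mRNAs. Their promoters in fibroblasts and other tissues are known for sites of the ETS family factor GABP and of NRF1.

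Promoter sequence was taken from RefSeq (GRCm38.p6) as the 250 bases before each annotated start, and 75 of the 93 genes with counts had an entry. A gene was counted where any of its annotated starts held the motif. The ETS core CCGGAAG, on either strand, was found in 14 of the 75 genes (18.7%), and in 7.8% of all 27025 genes with an entry. Those 27025 genes were not matched for expression or GC content. The NRF1 motif GCGCNTGCGC was also found in 14 of the 75 (18.7%), and in 4.2% of all genes. The YY1 core AAGATGG was found in 1 of the 75 (1.3% against 5.2% of all) and the TATA box TATAAA in 6 (8.0% against 14.3%). At least 1 of the ETS, NRF1 and YY1 motifs was found in 25 of the 75 genes (33.3% against 15.8%). These matches are a description of letters and are no sites of measured binding. Among the 12 genes that passed the test with the experiment as a block (described with complexes I to V), 10 had an entry, and the ETS core or the NRF1 motif was found in 3 of them. Those stretches are shown on the strand of the gene, with the motif in capitals.
Atp5c1, NRF1 motif read on the opposite strand, chr2:10080433-10080459, minus strand: ctgagctcccGCGCACGCGCactgagt
Ndufs5, NRF1 motif read on the opposite strand, chr4:123718265-123718294, minus strand: gctgcttgctGCGCAGGCGCagacccgctg
Atp5l, ETS core read on the opposite strand, chr9:44920938-44920964, minus strand: cttcaccgatCTTCCGGaccaacatga
The motif ended 8 bases before the start in Atp5c1, 89 bases before it in Ndufs5 and 206 bases before it in Atp5l. These distances are from the RefSeq start, and the counted gene of Atp5c1 begins further upstream (at 10080510 on chromosome 2), so that its stretch lies inside that gene.

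The 4 libraries held 14722848 to 18144640 counts. A total of 92 of the 96 genes had at least 10 counts over the 4 libraries and were tested, and 88 had at least 200. The genes not tested were Cox8b, Cox7b2, Cox8c and a duplicate entry of Atp5o. The unit of level is CPM (a gene's counts divided by the TMM-scaled library size, times 1000000) or, where genes are compared with each other, as the deposited TPM, which also divides by gene length. PEDF was compared with control by the quasi-likelihood test of edgeR with adjustment over all 19384 genes tested, and a gene is referred to as called where its adjusted p was under 0.05. With 2 libraries in a group, and 1 MEF preparation behind each pair, the spread covers these 2 preparations only. Fibroblast markers (Col1a1, Col1a2, Col3a1, Dcn, Lum, Pdgfra, Pdgfrb, Thy1 and Vim) were detected in every library and summed to 35400 to 44300 CPM. Bulk RNA cannot tell fewer cells of a type from less RNA per cell.

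The respiratory chain genes were strongly expressed and together took less than 1% of the counts. Their share was 0.794% in control and 0.839% in PEDF-treated MEFs of experiment 1, and 0.716% and 0.793% in experiment 2. Both PEDF libraries were thus higher than the control of their own experiment, but the PEDF library of experiment 2 did not exceed the control library of experiment 1. The median level was 101 TPM, compared with 9.19 TPM over all genes tested. By complex, the median level was 70.9 TPM for complex I, 126 for II, 148 for III, 158 for IV and 114 for V. By deposited TPM, the most abundant were the catalytic subunits of ATP synthase, Atp5b (beta, mean of 733 TPM) and Atp5a1 (alpha, 647 TPM). With them were the complex IV subunits Cox6a1 (647 TPM) and Cox8a (604 TPM). The deposited TPM, here and in the medians above, divides by an exon length that joins all transcripts of a gene (described below). That length is much longer than the median transcript for some of these genes. In mean CPM per kilobase of median protein-coding transcript, the highest were Atp5b (572), Cox4i1 (388), Cox6a1 (281), Atp5a1 (278) and Cox8a (240).

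**Figure D1:**
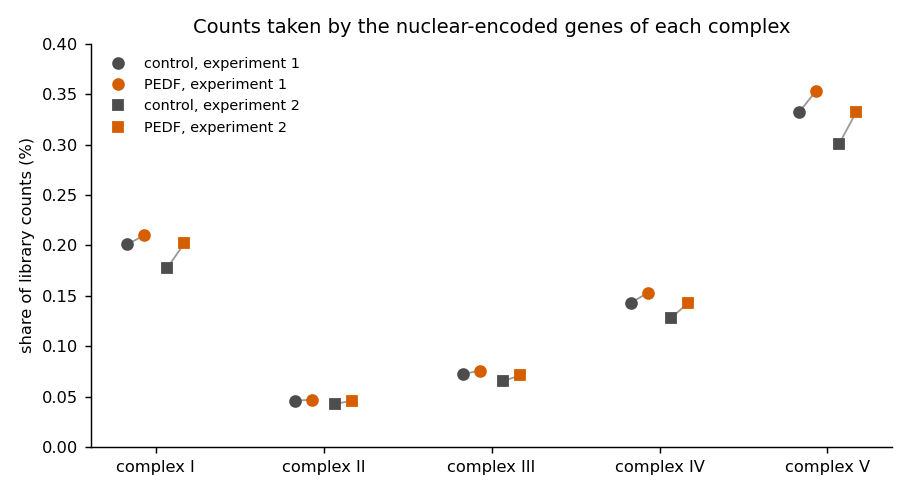
Share of library counts (%, linear axis from 0) taken by the nuclear-encoded genes of each complex, 1 point per library, with the control and PEDF libraries of an experiment joined by a line. Each PEDF point lies above its own control, from 0.201% to 0.210% and from 0.178% to 0.202% for complex I, and the control of experiment 2 is the lowest of the 4 libraries in every complex.

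As a group, these genes were slightly higher in PEDF-treated MEFs, and no single gene passed the test without a term for the experiment. The median log2 fold change (PEDF over control) of the 92 genes was 0.10, compared with 0.00 over all genes tested. A total of 73 of the 92 were above 0, compared with 50.2% of all genes. Against other genes of similar transcript length the gap was small, with medians of 0.095 for 85 respiratory chain genes and 0.092 for their length classes. With the experiment as a block and the trend with transcript length removed (both described below), the median of the 92 genes was 0.017. None had an adjusted p under 0.05 (smallest adjusted p = 0.696), against 0.00516% of all genes. An unadjusted p under 0.05 with a higher level was found for 14 of the 92 genes, compared with 3.22% of all genes, and with a lower level for 0. Among genes with a transcript of 256 to 2048 bases and a mean log2 CPM above 3, the share was 17.9% of 78 respiratory chain genes and 9.41% of 2977 other protein-coding genes. In DESeq2 the corresponding number of genes with an unadjusted p under 0.05 was 4.

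When the experiment was fitted as a block, so that each PEDF library was compared with the control of its own preparation, 12 of the 92 genes passed an adjusted p of 0.05. All 12 were higher with PEDF and 0 were lower, against 1.67% of all genes higher and 2.07% lower. Among 2977 other protein-coding genes of 256 to 2048 bases and a mean log2 CPM above 3, 6.99% were called higher and 0.571% lower. When the trend with transcript length was also removed (described below), only Atp5pb of the 12 stayed called. DESeq2 with the same block gave an adjusted p to only 11 of the 92 genes, 2 of the 12 among them, because its independent filtering left out the rest, and it called Atp5pb (adjusted p = 0.0288). Without that filtering, which gave all 92 an adjusted p, it called 0 (smallest adjusted p = 0.352), and 7 had an unadjusted p under 0.05. Of the 92 genes, 56 were higher with PEDF in both experiments, compared with 29.5% of all genes, and 36 had both PEDF libraries above both control libraries, compared with 18.9%. Against other protein-coding genes of similar transcript length (256 to 2048 bases) and a mean log2 CPM above 3, the gaps were smaller, with 66.7% of 78 respiratory chain genes and 53.5% of 2977 others higher in both experiments, and 42.3% and 34.9% with both PEDF libraries above both control libraries. The 6 genes that were lower in both experiments, named here after their values were seen, were Ndufaf7, Ndufa1, Ndufab1, Ndufb1-ps, Cox4i2 and Atp5mpl, and none of them passed the test in either fit.

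The size of the difference was not the same in both experiments. Within experiment 1 the median log2 ratio of PEDF to control was 0.06 and 62 genes were higher. Within experiment 2 it was 0.15 and 80 genes were higher. The medians in experiments 1 and 2 were 0.07 and 0.17 for complex I, 0.01 and 0.08 for complex II, 0.02 and 0.13 for complex III, 0.07 and 0.11 for complex IV and 0.06 and 0.19 for complex V. Among the 88 genes with at least 200 counts, the 95% counting interval of the ratio excluded 0 for 24 higher and 8 lower genes in experiment 1, and for 52 higher and 2 lower genes in experiment 2. Over all 12919 genes with as many counts, the shares were 12.8% higher and 13.1% lower in experiment 1, and 16.7% higher and 16.2% lower in experiment 2. These intervals cover counting error only. The controls themselves differed by more than PEDF and control did, since the median log2 ratio of the control of experiment 2 to that of experiment 1 was -0.18, while the ratio of the PEDF libraries was -0.075. Without control library 1 the median fold change was 0.18 and 4 genes were called, and without control library 2 the median was 0.02 and 0 genes were called. The number of genes with an unadjusted p under 0.05 was 32 without control library 1, 2 without PEDF library 1, 1 without control library 2 and 19 without PEDF library 2.

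**Figure D2:**
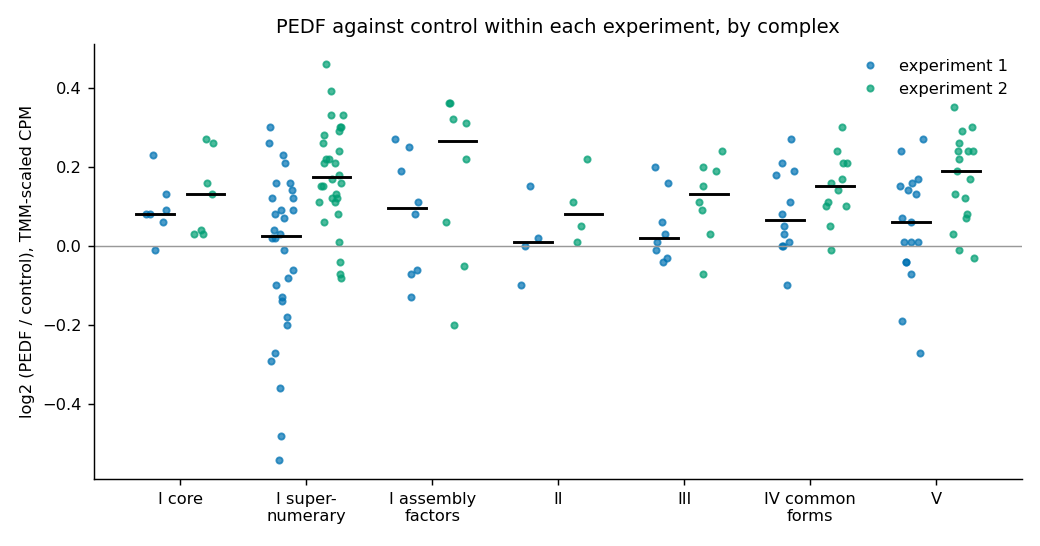
The log2 ratio of PEDF to control (TMM-scaled CPM, 1 control and 1 PEDF library per experiment) for the tested genes of 7 classes, with experiment 1 in blue, experiment 2 in green and the median as a black bar. Medians are above 0 in both experiments in the 7 classes drawn (the restricted forms and the retrocopy of complex IV are left out), and complex I supernumerary subunits spread from -0.54 to 0.30 in experiment 1.

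Complex I comprises core subunits that carry the flavin and iron-sulfur clusters, supernumerary subunits around them, and assembly factors that leave the finished enzyme. All 7 nuclear-encoded core subunits had a fold change above 0 without the block (median 0.13). So did 20 of 30 supernumerary subunits (median 0.10) and 7 of 8 assembly factors (median 0.11), compared with 50.2% of all genes. The counts were the same with the block. In that fit 74.7% of 2977 other protein-coding genes (256 to 2048 bases, mean log2 CPM above 3) were above 0. When the trend with transcript length was removed (described below), the counts were 6, 16 and 6 in the same order. With the block, 4 of the 45 genes of complex I passed the test, compared with 6.99% of those 2977 other genes called higher. All 4 were supernumerary subunits, the class that holds 30 of the 45 genes, and a difference between the classes was not tested. With the trend with transcript length removed, 0 of the 45 were called. The fold changes of the 45 genes ran from -0.21 to 0.32 without the block.

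Ndufc2, a subunit of the membrane arm, had the largest fold change among the called genes. It measured 47.1 CPM in control and 58.0 CPM in PEDF-treated MEFs of experiment 1, and 41.0 and 51.6 CPM in experiment 2, and the groups did not overlap (log2 fold change 0.32 ± 0.07 (SE) with the block, adjusted p = 0.00124). Ndufs5, another membrane arm subunit and one of the genes with the NRF1 motif shown, measured 41.0 and 45.9 CPM in experiment 1 and 33.6 and 44.0 CPM in experiment 2. Its fold change was 0.28 ± 0.08 (adjusted p = 0.0177 with the block), and its ratio was larger in experiment 2 (0.39) than in experiment 1 (0.16). Ndufs4, a subunit of the peripheral arm whose loss impairs complex I, was nearly equal in the 2 preparations, with 48.2 and 47.0 CPM in the controls and 55.9 and 56.3 CPM with PEDF (0.24 ± 0.07, adjusted p = 0.0297 with the block). Ndufb11, encoded on the X chromosome, measured 59.6 and 63.4 CPM in experiment 1 and 51.9 and 65.3 CPM in experiment 2 (0.21 ± 0.07, adjusted p = 0.0414 with the block).

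Catalytic subunits were also examined. Ndufv1, which binds NADH and flavin, measured 90.9 and 107 CPM in experiment 1 but 94.0 and 96.4 CPM in experiment 2, so the difference was seen in experiment 1. Ndufs1, the largest iron-sulfur subunit, held 91.5, 91.0, 93.1 and 95.1 CPM in control 1, PEDF 1, control 2 and PEDF 2. Neither of them passed the test in either fit.

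The lowest fold change among the complex I genes with at least 200 counts was that of Ndufa12. Its level was 23.6 CPM in control and 16.3 CPM in PEDF-treated MEFs of experiment 1, and 21.1 and 22.3 CPM in experiment 2, so that the PEDF library of experiment 1 stood apart from the other 3 (-0.21 ± 0.11, adjusted p = 0.35 with the block). The processed pseudogene Ndufa12-ps held more reads than the gene in every library, at 25.3, 28.5, 22.6 and 24.5 CPM in the same order of libraries. The paper describes the counts as uniquely mapped reads. How many reads of these near-identical copies were left out or misplaced could not be examined, and the level of Ndufa12 is uncertain for this reason. Other genes with such copies may be affected in the same way, which was not examined.

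Complex II has nuclear-encoded subunits only and is also an enzyme of the tricarboxylic acid cycle. None of its 4 genes passed the test in either fit, 0 had an unadjusted p under 0.05 without the block, and its median fold change was 0.04. Sdha, the flavin subunit, was almost level at 203, 206, 206 and 208 CPM in control 1, PEDF 1, control 2 and PEDF 2. Sdhb, the iron-sulfur subunit, followed the preparation more than the treatment, at 91.1 and 91.2 CPM in experiment 1 and 82.4 and 85.6 CPM in experiment 2. Of the membrane anchors, Sdhc was higher with PEDF in both experiments, at 91.1 and 101 CPM and at 87.9 and 95 CPM. Sdhd was lower with PEDF in experiment 1 (70.6 and 65.8 CPM) and higher in experiment 2 (58.2 and 67.7 CPM).

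In complex III, 2 of 8 genes passed the test with the block. In the same fit 6.99% of other protein-coding genes of 256 to 2048 bases (mean log2 CPM above 3) were called higher. With the trend with transcript length removed (described below), 0 of the 8 were called. Uqcrq, a small subunit near the ubiquinone site, measured 91.5 and 105 CPM in experiment 1 and 81.1 and 92.6 CPM in experiment 2 (0.19 ± 0.06, adjusted p = 0.0298). Uqcrc2, core protein 2, measured 113 and 127 CPM in experiment 1 and 104 and 119 CPM in experiment 2 (0.18 ± 0.05, adjusted p = 0.0317). In both genes the PEDF libraries were above the control libraries, for Uqcrq by a narrow margin. The partner of Uqcrc2, core protein 1 (Uqcrc1), had a fold change of -0.03, at 217 and 219 CPM in experiment 1 and 215 and 205 CPM in experiment 2. Uqcrfs1, the Rieske iron-sulfur protein, measured 69.9, 73.0, 69.0 and 74.4 CPM and did not pass the test (adjusted p = 0.59 with the block).

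Complex IV has several subunits with a common form and a form restricted to muscle, lung, testis or low oxygen, and MEFs expressed the common forms. The 12 genes of common forms had a median fold change of 0.12, and 11 of them were above 0 without the block. Cox7a2l, a relative of Cox7a2 known as a factor of respiratory supercomplexes, of which C57BL/6J mice carry a shortened form, measured 111 CPM in control and 127 CPM in PEDF-treated MEFs of experiment 1 and 90.0 and 111 CPM in experiment 2. It rose within each experiment, but the groups were not separated, because control 1 lay at the level of PEDF 2 (0.24 ± 0.06, adjusted p = 0.00108 with the block). Cox7b, a small structural subunit on the X chromosome, measured 69.1 and 83.2 CPM in experiment 1 and 63.6 and 73.8 CPM in experiment 2 (0.24 ± 0.06, adjusted p = 0.00724 with the block). Cox4i1, the main regulatory subunit, measured 292, 316, 272 and 292 CPM in control 1, PEDF 1, control 2 and PEDF 2, and did not pass the test (adjusted p = 0.199 with the block).

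Among the restricted forms, Cox6b2, known from testis, was the only one tested with more than 200 counts, at 305, 273, 288 and 337 counts in control 1, PEDF 1, control 2 and PEDF 2. It was lower with PEDF in experiment 1 and higher in experiment 2. Cox4i2, the lung form, held 16 to 32 counts per library, and Cox6a2, the muscle form, 11 to 25. Ndufa4l2, which is induced by low oxygen, held 5, 18, 7 and 4 counts, so its high value rests on the PEDF library of experiment 1. Cox7a1, the muscle form, held 0 to 7 counts, and Cox8b held 0 to 4. Cox7b2 and Cox8c, both known from testis, had 0 counts in all 4 libraries, which allows up to 3 counts in a library. Cox5b-ps, a retrocopy annotated as protein-coding, measured 8.53 to 10.0 CPM and was not called.

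**Figure D3:**
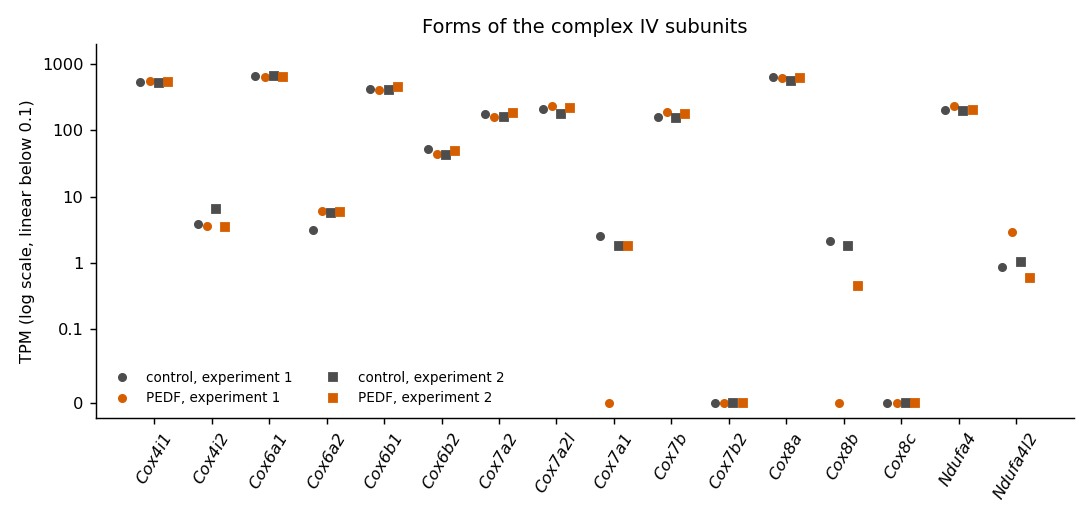
Deposited TPM of the complex IV subunit forms in each library (vertical axis logarithmic above 0.1 TPM and linear below it; circles experiment 1, squares experiment 2; grey control, orange PEDF). The common forms Cox4i1, Cox6a1, Cox6b1 and Cox8a have means of 418 to 647 TPM, Cox6b2 lies an order of magnitude lower, and Cox7b2 and Cox8c lie at 0 in every library.

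In complex V, 4 of 17 tested genes passed the test with the block. In the same fit 6.99% of other protein-coding genes of 256 to 2048 bases (mean log2 CPM above 3) were called higher. When the trend with transcript length was removed (described below), 1 gene of complex V was called. Atp5pb, subunit b of the peripheral stalk (chromosome 3, 105942698 to 105960099 in mm10, minus strand), measured 200 CPM in control and 236 CPM in PEDF-treated MEFs of experiment 1 and 185 and 219 CPM in experiment 2. Its groups did not overlap, and its ratio was the same in both experiments (0.24 ± 0.05, adjusted p = 0.000103 with the block). Atp5c1, the gamma subunit of the central stalk and one of the genes with the NRF1 motif shown, measured 153 and 170 CPM in experiment 1 and 135 and 157 CPM in experiment 2 (0.18 ± 0.05, adjusted p = 0.0146 with the block).

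Atp5l and Atp5md encode small membrane subunits (g and k) at the site where ATP synthase forms dimers. The fold changes of the 17 tested genes of complex V ran from -0.03 to 0.28 without the block. Atp5l measured 74.3 and 89.8 CPM in experiment 1 and 61.5 and 75.5 CPM in experiment 2 (0.28 ± 0.06, adjusted p = 0.000435 with the block). Atp5md measured 78.3 and 86.5 CPM in experiment 1 and 59.4 and 75.9 CPM in experiment 2 (0.25 ± 0.06, adjusted p = 0.0043 with the block). For Atp5md the PEDF library of experiment 2 was below the control of experiment 1, so its call rests on the comparison within each experiment. The catalytic subunit beta, Atp5b, was level at 1100, 1110, 1080 and 1100 CPM in control 1, PEDF 1, control 2 and PEDF 2. Atp5a1, the alpha subunit, measured 697, 762, 683 and 723 CPM and did not pass the test (adjusted p = 0.164 with the block).

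**Figure D4:**
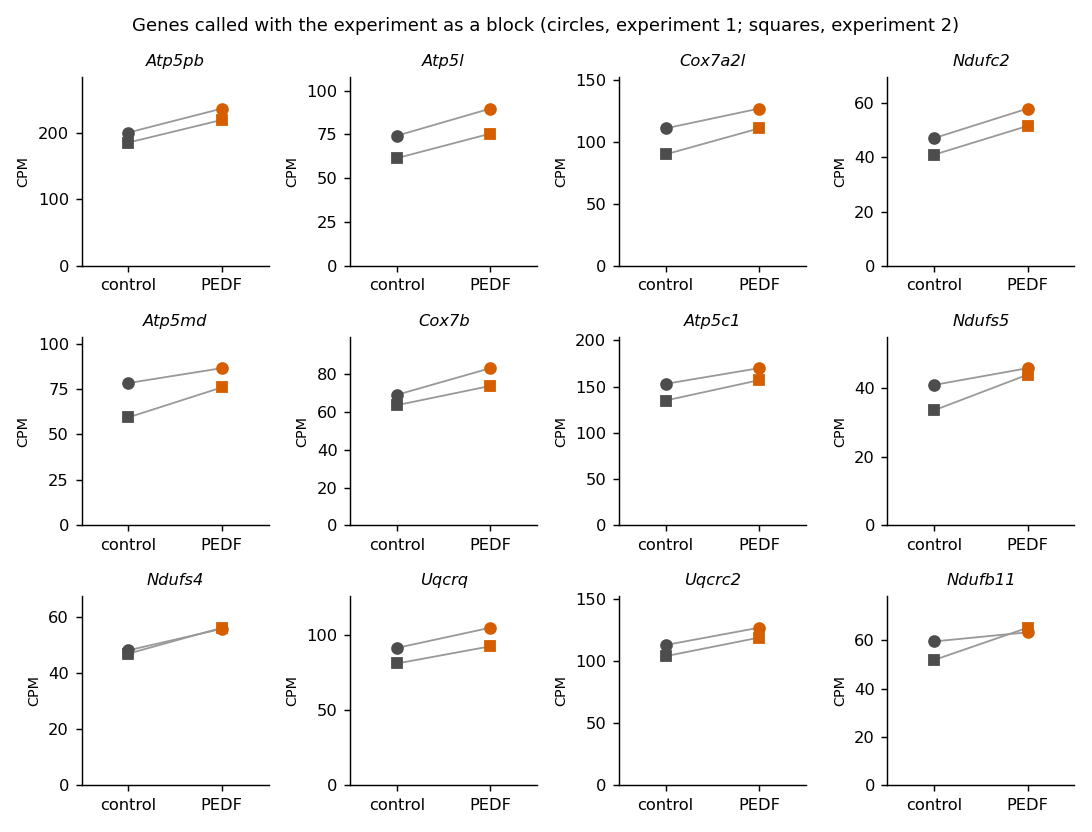
CPM (linear axes from 0) in control and PEDF-treated MEFs for the 12 genes with an adjusted p under 0.05 in edgeR with the experiment as a block, ordered by adjusted p. Lines join the libraries of an experiment and all rise, while the PEDF square lies at or below the control circle for Cox7a2l and Atp5md.

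The comparison with genes of similar length used the median length of a gene's protein-coding transcripts in GENCODE M21. The exon length in GENCODE M21, which the deposited TPM implies, joins all transcripts. It is much longer for some of these genes (6440 bases for Atp5l, against a median transcript of 544). Across other protein-coding genes with a mean log2 CPM above 3, short transcripts were higher with PEDF and long ones lower in both experiments. In the class of 512 to 724 bases, the median log2 ratio of 171 other genes was 0.08 in experiment 1 and 0.16 in experiment 2. In the class of 5793 to 8192 bases, that of 776 other genes was -0.075 and -0.11.

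The respiratory chain genes, with a median transcript of 732 bases, were close to this trend. Taking for each of 85 genes the median of other genes in its own length class, experiment 1 gave 0.06 for the respiratory chain genes and 0.075 for the length classes, with 40 genes above their class and 45 below. Experiment 2 gave 0.16 and 0.12, with 56 genes above and 29 below. In the fit with the block the medians were 0.10 and 0.09, whereas the median of all 9980 other genes was 0.00. The ratio of control 2 to control 1 was -0.18 for the respiratory chain genes and -0.11 for their length classes, with 23 genes above their class and 62 below. Among the genes of 256 to 2048 bases, 12 of 78 respiratory chain genes (15.4%) and 208 of 2977 others (6.99%) were called higher with the block, and 0 and 17 were called lower. In the same fit 84.6% of the 78 and 74.7% of the 2977 had a fold change above 0.

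**Figure D5:**
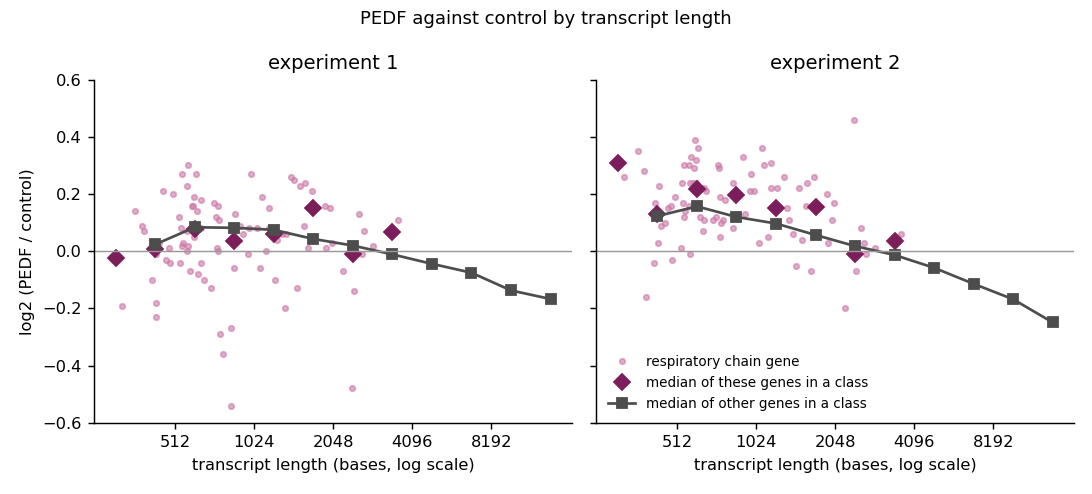
The log2 ratio of PEDF to control against transcript length (bases, log scale) in experiments 1 and 2, with respiratory chain genes as small points, their median per length class as diamonds (classes of at least 2 genes) and the median of other protein-coding genes as grey squares (classes of at least 20 genes). The grey line falls from above 0 for short transcripts to below 0 for long ones, and most diamonds lie near it in experiment 1 and on or above it in experiment 2.

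When the trend with transcript length was removed from each library in the fit with the block, the median fold change of the 92 genes was 0.02, and 54 were above 0. Among the genes of 256 to 2048 bases, 1 of 78 respiratory chain genes (1.28%) and 42 of 2977 others (1.41%) were then called higher. Only Atp5pb remained called among the 12 genes (0.18 ± 0.05, adjusted p = 0.00917), against 0.727% of all genes called higher. Atp5l then had a fold change of 0.19 ± 0.06 (adjusted p = 0.0664) and Ndufc2 of 0.22 ± 0.07 (adjusted p = 0.0812). Ndufs4 had 0.19 ± 0.07 (adjusted p = 0.195) and Ndufs5 had 0.19 ± 0.08 (adjusted p = 0.281). These fold changes are no smaller than that of Atp5pb. With the joined exon length instead, Atp5l (0.31 ± 0.06, adjusted p = 7.72e-05) and Atp5pb (0.23 ± 0.05, adjusted p = 0.000408) were called, against 0.908% of all genes called higher. Which genes stay called therefore differs with the length that is used, except for Atp5pb.

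Genes that work with the respiratory chain outside the name rule showed no call in the fit without the block. Cycs, which encodes the electron carrier cytochrome c, measured 71.2, 77.3, 66.2 and 74.8 CPM in control 1, PEDF 1, control 2 and PEDF 2, and Cyc1, the cytochrome subunit of complex III, 116, 114, 106 and 112 CPM. Neither passed the test with the block. Of 38 further assembly factors tested, 0 were called with the block and the median fold change was 0.07. Of 16 transcription factors and coactivators of mitochondrial biogenesis, among them Ppargc1a, Nrf1, Gabpa and Tfam, 0 were called and the median was -0.01. Of 13 enzymes of the tricarboxylic acid cycle, 0 were called and the median was 0.015. In these lists no unadjusted p under 0.05 was found without the block for the biogenesis factors, 1 for the cycle enzymes and 5 for the assembly factors, 3 higher and 2 lower.

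The subunits encoded by mitochondrial DNA followed another pattern between the preparations. Of the 12 tested, only mt-Nd6, a complex I subunit named here after its values were seen, was called with the block, at 478, 607, 508 and 568 CPM in control 1, PEDF 1, control 2 and PEDF 2 (0.25 ± 0.04, adjusted p = 1.8e-06). The median ratio of control 2 to control 1 was 0.13 for these 12 genes, opposite in sign to the -0.18 of the nuclear-encoded genes. Their levels ran from 0.965 to 1.23 CPM for mt-Nd4l up to 6250 to 7160 CPM for mt-Co1, and each gene has equal weight in this median. The paper describes the counts as uniquely mapped reads, and the effect of this on these genes was not tested.

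Ribosomal and proteasome genes, chosen by symbol, are given beside these values. With the block, 20 of 81 cytosolic ribosomal protein genes were called higher and 1 lower, with a median fold change of 0.09. Mitochondrial ribosomal protein genes had 4 of 77 called higher and a median of 0.09, and proteasome subunit genes had 4 of 39 and a median of 0.09. The difference between these groups and the respiratory chain genes was not tested.

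Markers of other cells differed between libraries as well. The 11 skeletal muscle markers summed to 571 and 647 CPM in control and PEDF-treated MEFs of experiment 1 and to 684 and 777 CPM in experiment 2, and 5 of them were called higher with the block. The 9 fibroblast markers summed to 38200 and 35400 CPM in experiment 1 and to 44300 and 38100 CPM in experiment 2, with 2 called higher and 3 lower. The 8 macrophage markers summed to 132, 131, 83.5 and 106 CPM in control 1, PEDF 1, control 2 and PEDF 2, with 1 called higher, so that control 2 was again the lowest library. The 6 epithelial markers summed to 42.6 to 56.7 CPM and the 7 endothelial markers, 2 of which were at 0 in every library, to 16.0 to 16.7 CPM, with 0 called. The part of these markers in the differences of the respiratory chain genes was not tested.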

How the data were processed

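The authors isolated polyadenylated RNA, prepared directional libraries, and made gene counts from the reads; the submitters' processing notes list FastQC 0.11.7, Trimmomatic 0.38, HISAT2 2.1.0, SAMtools 1.9, featureCounts 1.6.3 and the build mm10. The strand setting of the counting is not given in the sources used here. The deposited counts are raw reads per gene, which the paper describes as uniquely mapped. A TPM table (sum of 1000000 in each library) was deposited beside them, and the gene length it implies is within 1% of the summed exon length of GENCODE M21 for 98.4% of 13058 genes. For the sequenced MEFs the paper gives passage 3, and the labels give passage 2.

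Counts were analyzed in R 4.3.3 with edgeR 4.0.16 (TMM, robust quasi-likelihood test, Benjamini-Hochberg adjustment over 19384 genes with at least 10 counts in total). Total counts of 14722848 to 18144640 per library set the counting error. The main fit had no covariate. Each experiment had its own embryos per the labels, so the replicate numbers pair the libraries, and the log2 ratio of the 2 control libraries correlated with that of the 2 PEDF libraries (r = 0.423 across the 10722 genes whose mean log2 CPM exceeded 3; genes are no independent replicates). The block was therefore also fitted.

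The alternatives were RLE factors, DESeq2 1.42.0, no filter, filterByExpr, limma 3.58.1 on log2(TPM + 1) and log2(TPM + 0.1), the block, the block with a correction for exon length (spline with 5 degrees of freedom as an offset), each library left out, and each experiment alone. The corrections for length with GC content and for transcript length, and DESeq2 without independent filtering, were chosen after seeing the data. With 2 libraries against 2, an exact permutation test of a single value cannot go below p = 0.333, so none was run.

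Genes were named by a rule: those called in either fit, the subunits of complex II, the paired forms of complex IV, catalytic subunits, the largest rise and fall and the 2 highest mean TPM in each complex, and those with under 10 counts. The result of 1 of the genes so named is not reported here. The genes and lists were chosen with earlier results of these data known. The fits were tested on simulated data with known changes.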

Additional observations from a re-analysis of the deposited data

How the results depend on the processing

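The labels pair the libraries of an experiment, and the replicate block raised the number of respiratory chain genes with an adjusted p under 0.05 from 0 to 12 in edgeR. It gave 1 in DESeq2, where independent filtering left 81 of the 92 genes without an adjusted p, and 0 there without that filtering. It gave 2 with the length correction, 2 with the length and GC correction and 1 with the transcript length correction. The number with an unadjusted p under 0.05 rose with the block from 14 to 34 in edgeR and was 7 in DESeq2 with or without the filtering. Without the block, DESeq2 gave 4 such genes and limma 5 with either pseudocount. Leaving out single libraries, the counts ran from 0 to 4 and from 1 to 32, and the lone library of an arm was assumed to vary like the other group. RLE factors, filterByExpr and no filter left both counts within 1.5 times those reported.

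The median log2 fold change of all the genes was 0.024 with the block and length correction, 0.025 with length and GC, and 0.017 with transcript length. In the same order it was -0.013 and -0.019 for complex II (length, and length with GC), -0.015, -0.023 and -0.005 for complex III, and 0.013, 0.015 and 0.008 for complex IV. Experiment 1 alone gave 0.011 for complex II, 0.019 for III and 0.071 for IV, and experiment 2 alone gave 0.17 for complex I, 0.084 for II, 0.129 for III and 0.186 for V. Leaving out single libraries gave 0.024 to 0.178 for all the genes, 0.024 to 0.191 for complex I, -0.009 to 0.129 for II, -0.003 to 0.151 for III, 0.033 to 0.161 for IV and 0.025 to 0.26 for V, each lowest without control library 2 and highest without control library 1.

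Of 42 genes named by the rule, 19 changed sign in at least 1 alternative fit, in 54 of 670 values, and none of these was called with either sign. Apart from Ndufa4l2, their reported log2 fold changes were at most 0.12 in size. With the block and the length correction, the values were -0.04 for Cox7a2, -0.04 for Sdhb, -0.03 for Sdhd, -0.07 for Uqcr10, -0.03 for Uqcr11 and 0.00 for Cox6b1 and Uqcrfs1. With length and GC, they were -0.01 for Cox6b1, -0.05 for Cox7a2, -0.01 for Sdha, -0.03 for Sdhb, -0.04 for Sdhd, -0.07 for Uqcr10, -0.01 for Uqcr11 and -0.02 for Uqcrfs1. With transcript length, they were -0.02 for Atp5b, 0.00 for Cox6b1 and Cox8a, -0.04 for Cox7a2, -0.05 for Sdhb, -0.01 for Sdhd, -0.07 for Uqcr10 and -0.03 for Uqcr11. The block alone gave 0.00 for Cox6b2. With limma on log2(TPM + 1) and on log2(TPM + 0.1), the values were 0.00 for Atp5b, -0.01 for Ndufs1, -0.01 for Sdha and -0.01 for Uqcr10. With libraries left out, the values ran from -0.15 to 0.09 for Atp5mpl, -0.21 to 0.19 for Atp5o, -0.16 to 0.07 for Cox5b-ps, -0.03 to 0.02 for Cox6a1, -0.18 to 0.18 for Cox6b2, -0.05 to 0.16 for Cox7a2, -0.02 to 0.19 for Cox8a and -0.07 to 0.33 for Ndufa2. They ran from -0.69 to 1.64 for Ndufa4l2, -0.02 to 0.04 for Ndufs1, -0.05 to 0.10 for Sdhb, -0.08 to 0.20 for Sdhd, -0.13 to 0.15 for Uqcr10, -0.03 to 0.14 for Uqcr11 and -0.08 to 0.02 for Uqcrc1. The cause of these changes was not tested. Counts set the precision: tested genes with fewer than 200 counts, all of them restricted forms of complex IV, have standard errors too large to show a change of the size seen here.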
